A study of Drosophila melanogaster with 16 samples.

Results

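Of 8 Wnt and Frizzled genes, 2 (Wnt2 and fz2) had a chromatin loop anchor in or within 20 kb of the gene. The share over all protein-coding genes was 13.8%. The 8 were 6 Wnt ligand genes (wg, Wnt2, Wnt4, Wnt5, Wnt6 and Wnt10) and 2 Frizzled receptor genes (fz and fz2). A further 3 (wg, Wnt6 and Wnt10) lay together in a single domain with no boundary between them, as did 62.9% of all runs of 3 consecutive protein-coding genes that are 50 to 100 kb long. These 8 genes were taken by name out of 13922 protein-coding genes on the arms 2L, 2R, 3L, 3R, 4 and X, and were placed with a gene annotation of the dm6 genome. For each, the loops with an anchor in or near the gene and the nearest boundary on each side were read from the map of the control line. Left and right are by genome coordinate, because the gene table used here gives no strand, and a gene end named here may be either the start or the end of transcription.

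Wnt proteins are secreted, lipid-modified signals, and Frizzled proteins are the membrane receptors that bind them. In the canonical branch, a bound receptor keeps the destruction complex from degrading the beta-catenin Armadillo, which then acts in the nucleus with the factor Pangolin. In the fly embryo, wg (wingless) is a segment polarity gene that is transcribed in stripes and maintains the borders of the segments.

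The study measured chromatin contacts by Micro-C, which maps which stretches of DNA touch at nucleosome resolution, in hand-staged embryos of nuclear cycle 14 of Drosophila melanogaster. The values here come from the control line yw, with genotype WT in the labels and 2 samples. The other 14 samples carry edited genotypes and were not analysed here. Collections of whole embryos were pooled, so the map averages over all nuclei, whether or not they transcribe a given gene, and the labelled stage and tissue could not be checked with marker genes in contact data.

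The control map held 313 loops and, on the compared arms, 1930 boundaries of 400 bp each. A boundary is a bin across which contacts are depleted, a domain is the stretch between neighbouring boundaries, and a loop is a pair of anchors with focal contact. Each boundary carries a strength from the authors. Each loop carries a value and further scores of the loop caller, of which the average peak score is also given below. There is no value per sample, so no score has a replicate error, no comparison below has a test, and the depth behind the map is unknown. Contacts too weak or too shallowly sequenced to be called are not in the lists.

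The cluster of Wnt genes on 2L held 4 of the 6 ligands taken here in 122.1 kb. A further Wnt family member, wntD on 3R, is listed below with the other pathway genes. Wnt4 lay at 7255419 to 7277171, wg at 7307159 to 7316265, Wnt6 at 7333714 to 7352542 and Wnt10 at 7363379 to 7377528 (dm6). Clusters of this kind, with relatives of wg, Wnt6 and Wnt10 side by side, are known from many animals. The gap between Wnt4 and wg was 30.0 kb, that between wg and Wnt6 17.4 kb and that between Wnt6 and Wnt10 10.8 kb. No protein-coding gene lay in any of these 3 gaps.

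Sharing a domain is common among genes this close. Of neighbouring protein-coding genes 10 to 20 kb apart, 80.9% had no boundary from the left end of the first to the right end of the second. No boundary separated wg from Wnt10 or from Wnt6, a ligand needed for the maxillary palps of the adult head. Their common domain ran from 7258401 to 7388000 on 2L, a length of 129.6 kb. Its left boundary, at 7258001 to 7258400, had a strength of 1.58 and rank 1093 of 1930. Its right boundary, at 7388001 to 7388400, had a strength of 1.62 and rank 1022. Both scores were a little under the median strength of all boundaries, 1.64. The 4 Wnt genes covered 47.0% of the domain. Besides them, the domain held 1 whole protein-coding gene, ninaC, a myosin gene of photoreceptor cells. It also held most of CG5149, whose right end lay inside the right boundary bin.

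Wnt4, a ligand known for its part in cell migration in the ovary, was the only one of the 8 genes with a boundary inside it. The share over all protein-coding genes was 6.41%, but Wnt4, at 21.8 kb, is longer than 93.3% of genes. A long gene has more room for a boundary, and the share was not computed by gene length. The left boundary of the wg domain lay 2582 bp inside the left end of Wnt4, where the small gene CG31909 lies within Wnt4. To the right of this bin was 86.3% of Wnt4, in the same domain as wg. The remaining left end of Wnt4 fell in a neighbouring domain of 38.0 kb. That domain held 5 whole protein-coding genes, mEFG1, Ndae1, CG43799, CG43800 and CG13786, and ended on the left at a boundary of strength 1.87 at 7219601. Because of the boundary in Wnt4, only 3 of the 6 pairs within the cluster (wg with Wnt6, wg with Wnt10 and Wnt6 with Wnt10) count as sharing a domain over their full lengths.

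**Figure D1:**
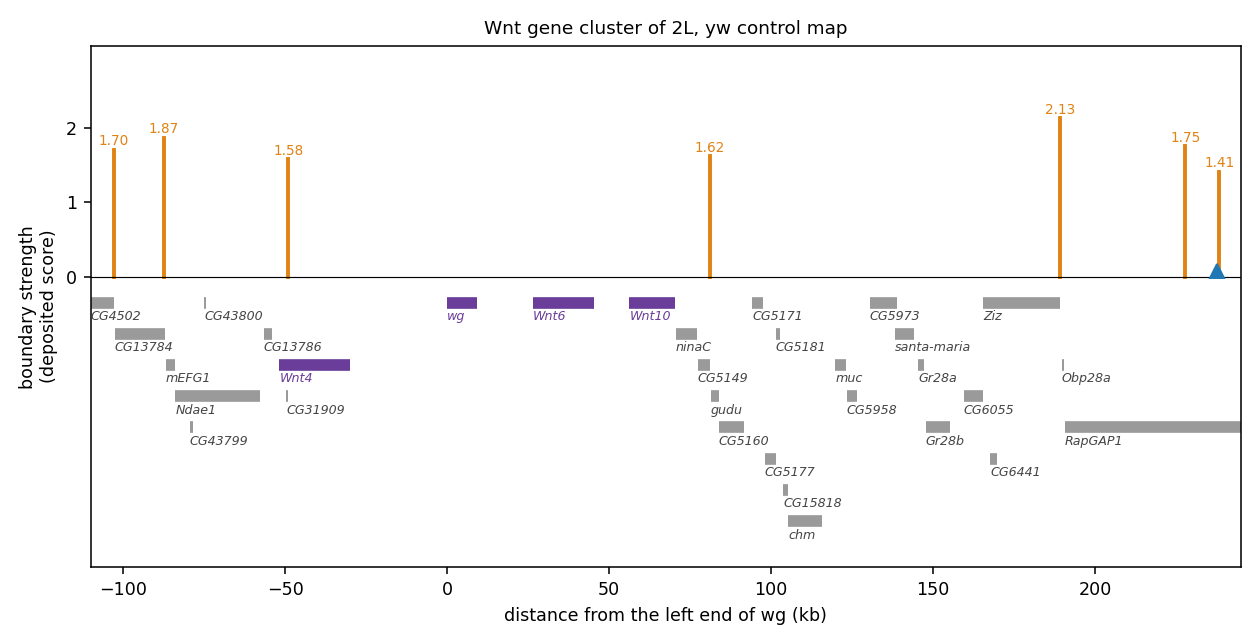
Map of the Wnt cluster on 2L, with distance from the left end of wg in kb on the x axis and boundary strength (deposited score) on the y axis. Orange lines are boundaries, the blue triangle is the nearest loop anchor on the right (that on the left lies outside the plot), and bars below the axis are protein-coding genes, with the 4 Wnt genes in purple. Between the boundaries of 1.58 and 1.62 lie wg, Wnt6 and Wnt10 with no boundary and no anchor.

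Setting weak boundaries aside can only merge intervals. With boundaries of at least the median strength, the bins at 7258001 and 7388001 both dropped out. All 4 Wnt genes then lay in 1 interval of 276 kb, from the boundary at 7219601 to one of strength 2.13 at 7496001. With boundaries of strength 2 or more, the interval around all 4 genes was 523.6 kb. The share of other genes that lie together at these strengths was not computed.

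The cluster carried no loop. None of the anchors of the 313 loops lay in the domain of wg, Wnt6 and Wnt10, and no loop enclosed any of the 4 genes. To the left, the nearest anchor ended 80.2 kb from Wnt4 and 132.0 kb from wg and belonged to a loop of value 4.65. To the right, the nearest anchor lay 166.9 kb from Wnt10, inside RapGAP1, a gene for a GTPase-activating protein, and belonged to a loop of value 22.3. The stretch between these anchors was 369.2 kb long. Over the 13365 protein-coding genes that have no anchor inside and an anchor on each side, such stretches had a median of 686 kb, and 24.2% of these genes lay in a shorter one. The lack of an anchor within 20 kb is the common state in this map, in which 13.8% of all protein-coding genes have one.

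Wnt2 was the only ligand of the 8 genes at an anchor. It is a ligand with known roles in the male gonad and lies on 2R at 9494166 to 9503188. Its loop joined the anchor at 9493601 to 9494400, which covers the left end of Wnt2 with 235 of its 800 bp inside the gene, to the anchor at 9453601 to 9454400. The anchor starts were 40 kb apart, and the loop ranked 121st of 313 by span. Its value was 4.86, rank 256 of 313, so most loops of the map had higher values. The caller's average peak score for this loop was 5.14, rank 200. An anchor within 1 kb of a gene end was found for 1 of the 8 genes, Wnt2, against 2.14% of all protein-coding genes.

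The far anchor of the Wnt2 loop lay inside Camta, a calmodulin-binding transcription activator, 7555 bp from the left end of that gene. The small genes CG33758 and CG33757, which lie within Camta, overlapped the same anchor. The loop spanned no boundary. It lay in a domain of 95.2 kb whose boundaries stood at the outer ends of the 2 neighbours of Wnt2. The left boundary, 9446001 to 9446400 with a strength of 1.45, contained the left end of Camta. The right boundary, 9541601 to 9542000 with a strength of 1.87 and rank 624, lay just past brp, the gene of the active-zone scaffold Bruchpilot, and contained an end of CG1888. Wnt2 itself stood 577 bp from brp.

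Among the receptors, fz2 had a loop nearby, but on the other side of a boundary. The gene fz2 encodes a receptor of Wingless and is 94.4 kb long, at 19140975 to 19235373 on 3L. A loop of value 6.40, rank 190 of 313, joined anchors at 19104801 to 19105200 and 19135601 to 19136000, with 30.8 kb between the anchor starts. Its right anchor ended 4975 bp from the left end of fz2. Both anchors belonged to CG14082, the first 181 bp outside its left end and the second within the gene, 2975 bp from its right end. A boundary of strength 1.38 at 19140001 to 19140400 lay between this anchor and fz2, 575 bp from the gene. The loop was thus contained in the domain to the left of fz2, which was 47.2 kb long and had a boundary of strength 1.95 on its other side. The average peak score of this loop was 3.08, rank 299 of 313.

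**Figure D2:**
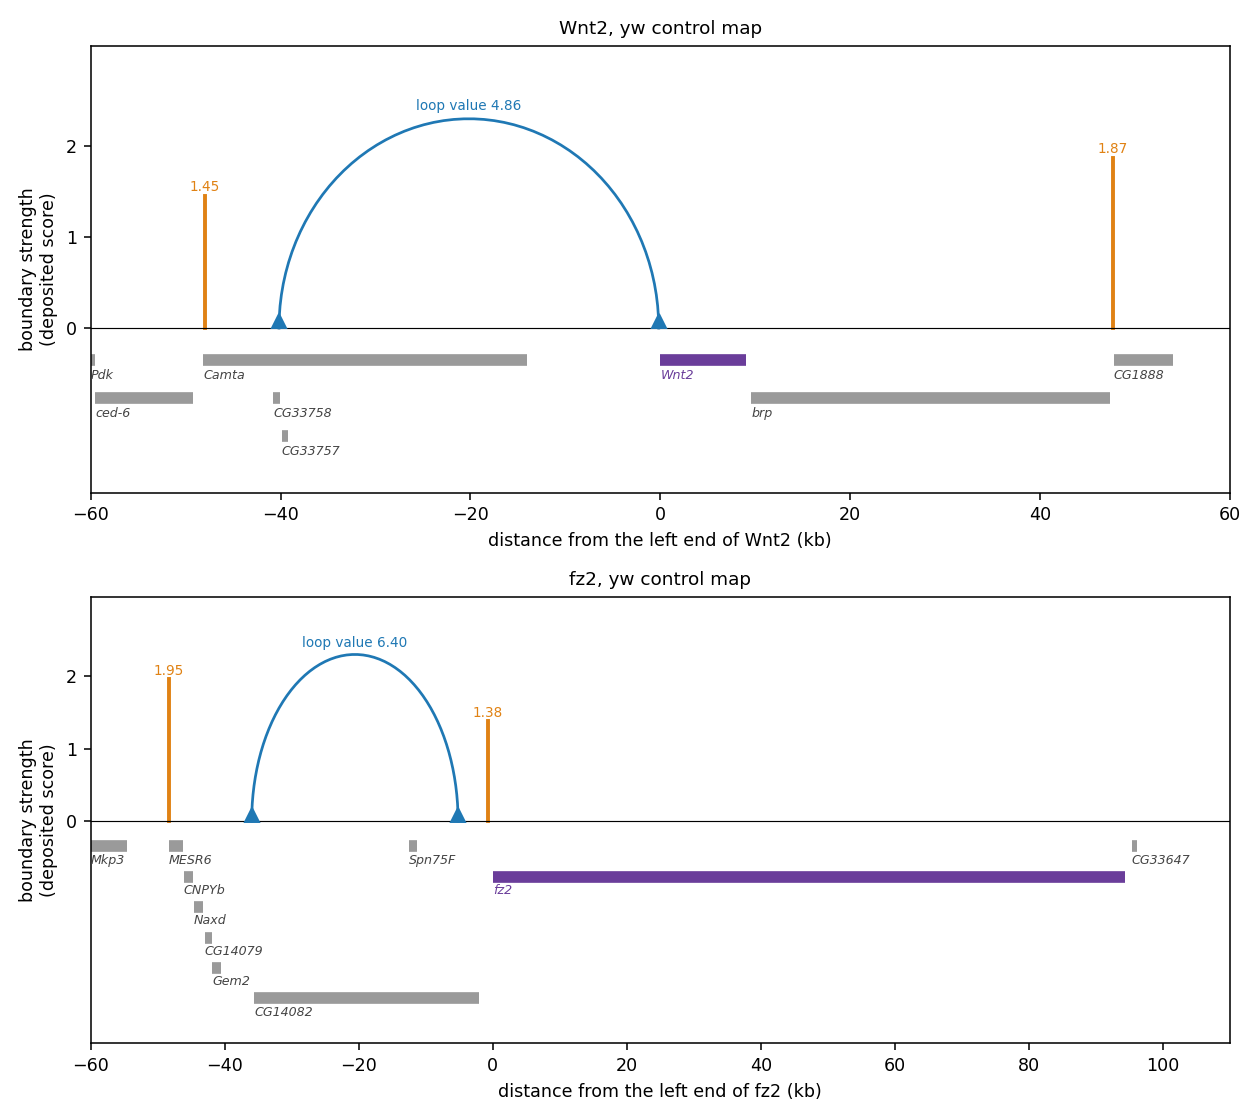
Maps of Wnt2 (top) and fz2 (bottom), with distance from the left end of the gene in kb on the x axis and boundary strength (deposited score) on the y axis. Orange lines are boundaries, blue arcs are loops with anchors as triangles (arc height carries no value), and bars below the axis are protein-coding genes. The Wnt2 loop (4.86) ends on Wnt2, while the loop beside fz2 (6.40) ends short of the boundary of strength 1.38 that precedes fz2.

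With both loops counted, 2 of the 8 genes had an anchor in or within 20 kb, against 13.8% of all protein-coding genes and 21.1% of those at least 10 kb long. Long genes have more room for an anchor, and 5 of the 8 genes reach 10 kb, of which fz2 alone had an anchor. With so few genes this count says little about the families. The nearest gene on either side of the limit of 20 kb was fz2, inside it at 4.98 kb, and Wnt4, outside it at 80.2 kb, so limits of 10 kb (8.32% of all protein-coding genes) and 50 kb (25.9%) gave the same 2 genes. Both loops had values under the median of all loops, 7.75. With loops of at least that value, none of the 8 genes had an anchor within 20 kb, against 5.65% of all protein-coding genes.

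The receptor genes lay in the longest domains of the 8 genes. The domain of fz2 was 376 kb long, rank 26 of 1895 domains by size, and ran to a boundary of strength 1.37 at 19516401. It held 34 whole protein-coding genes, fz2 included, among them mRpL21, a mitochondrial ribosomal protein gene, rept, a chromatin remodelling gene, and pip (pipe), a maternal gene of the dorsoventral axis. The nearest other protein-coding gene to fz2 in it was CG33647, 987 bp away.

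The gene fz (frizzled) encodes a Wingless receptor that is also a core component of planar cell polarity. It was 94.3 kb long, at 14274343 to 14368639 on 3L, and stood in a domain of 324.4 kb, rank 49 of 1895. The left boundary, of strength 1.97 at 14212401, lay inside nuf, a gene needed for membrane growth in the early embryo. The right boundary, of strength 1.62 at 14537201, contained the right end of CG43246. Of the 14 whole protein-coding genes of this domain, fz included, CG13482 lies inside fz, CG13481 lay 286 bp to its right, and CG7906 was the nearest on its left, 36071 bp away. The nearest anchor to fz was 96.3 kb to the left, in or within 1 kb of the Sox gene D. The nearest on the right was 210.2 kb away. The genes fz and fz2 share arm 3L but lay 4772 kb apart with 67 boundaries between them.

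Wnt5, the ligand of the receptor Derailed in axon guidance, is the only one of the 8 genes on X, at 18501401 to 18505405. Its domain was 130 kb long, with 21 whole protein-coding genes, Wnt5 included. Xrcc2, a DNA repair gene, lay 143 bp to its left and Ggt-1 478 bp to its right. Wnt5 stood near the right edge of the domain, 10.2 kb from a boundary of strength 1.38 that lay 173 bp inside HisRS and Bx, which have the same left end. The left boundary was 115.8 kb away, had a strength of 2.07 and contained an end of betaCOP. This was the highest strength beside any of the 8 genes. The nearest anchors lay 188.2 kb to the left and 160.2 kb to the right of Wnt5.

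**Figure D3:**
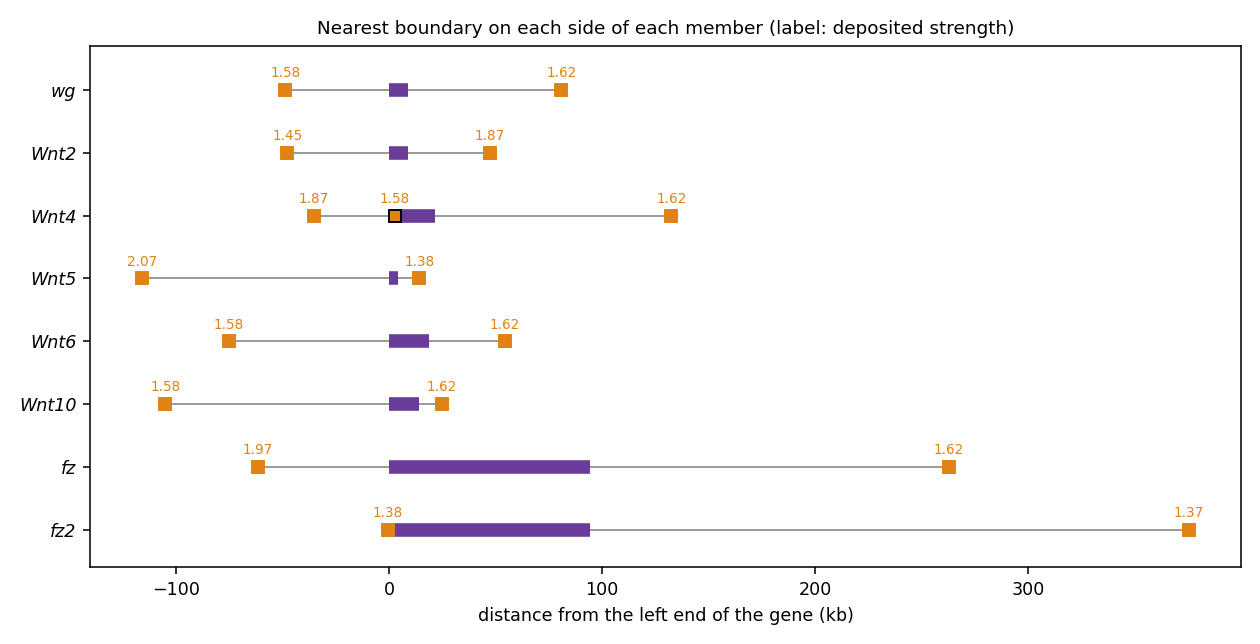
Nearest boundary on each side of each of the 8 genes, with distance from the left end of the gene in kb on the x axis and 1 gene per row. Purple bars are the genes, orange squares are the boundaries with their strength as a label, and the square with a black edge is the boundary inside Wnt4. The intervals run from 95.2 kb at Wnt2 to 376 kb at fz2.

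Over all 8 genes, the interval between the flanking boundaries had a median of 129.8 kb and ran from 95.2 to 376 kb. Over 13908 protein-coding genes with a boundary on each side, the median was 116.8 kb, with quartiles of 56.8 and 215.6 kb. The interval of wg, Wnt6 and Wnt10 was longer than that of 53.0% of genes. That of Wnt2 was longer than that of 42.2% and that of Wnt5 longer than that of 53.1%. The interval of Wnt4, 168 kb, was longer than that of 65.0%, but it holds the boundary inside Wnt4 and so is not a single domain. That of fz was longer than that of 88.8% and that of fz2 longer than that of 93.6%. The ligands among the 8 genes thus lay between the quartiles of all genes, and fz and fz2 above the upper one. The interval of wntD, the Wnt family member listed below, was 41.2 kb and lay below the lower quartile. Long intervals were not found at the other Frizzled-family genes listed below, fz3 (169.6 kb, between the quartiles) and fz4 (12.4 kb, below the lower one). The genes fz and fz2 are also long, longer than 99.3% of genes. The length of a gene without a boundary inside sets only the least size of its interval. Beside the gene, the interval of fz held 61.5 kb on the left and 168.6 kb on the right. That of fz2 held 0.575 kb on the left and 281.0 kb on the right. Whether gene length bears on these intervals was not tested.

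Boundaries near the 8 genes were counted at the same distances as for all genes. A boundary lay within 1 kb of a gene end at 1 of the 8, fz2, against 18.2% of all protein-coding genes, and in or within 20 kb of the gene at 4 of the 8, against 57.9%. Both counts are close to the background, in which most genes have no boundary within 1 kb of an end. With boundaries of at least the median strength, none of the 8 genes had one in or within 20 kb, against 32.5% of all protein-coding genes, and none had one inside, against 2.68%. The distance from the gene to the nearest boundary had a median of 23.0 kb over the 8 genes and 14.2 kb over all protein-coding genes. It was 48.8 kb for wg, 38.4 kb for Wnt2, 35.5 kb for Wnt6 and 61.5 kb for fz. The genes of the cluster share boundaries, so the 8 genes are not 8 separate observations.

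The boundaries concerned were of ordinary strength. There were 11 different ones, beside or inside the 8 genes, with strengths from 1.37 to 2.07 and a median of 1.62. The 1930 boundaries of the compared arms had a median of 1.64 and reached 9.495. Of the 11, 4 reached that median and 1, left of Wnt5, reached 2, a strength met by 24.5% of all boundaries. The lowest listed strength was 1.2502, so weaker boundaries around these genes are not seen.

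**Figure D4:**
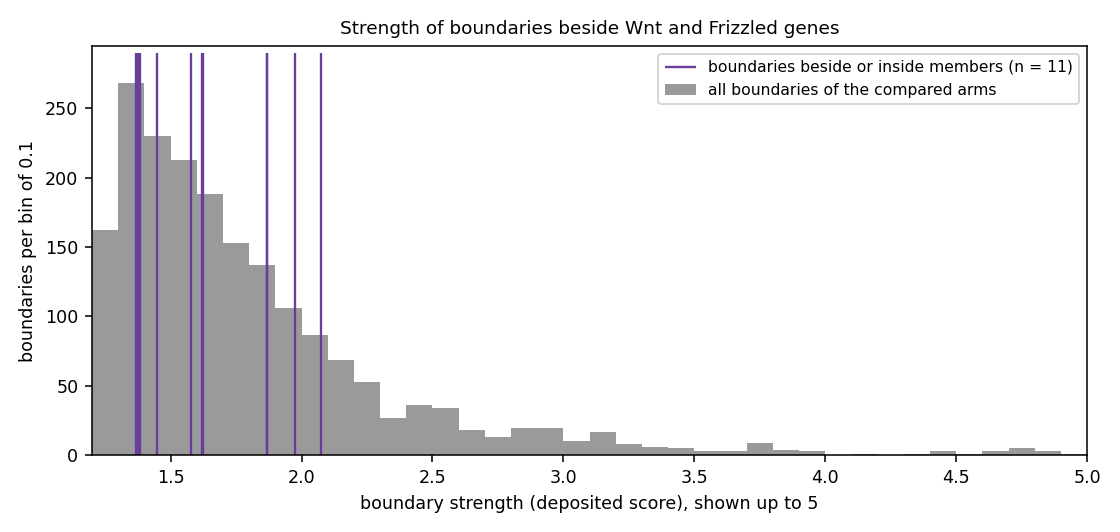
Strengths of the 11 boundaries beside or inside the 8 genes (purple lines) and of all boundaries of the compared arms (grey bars, number per bin of 0.1 on the y axis). The x axis is the deposited strength, shown up to 5, and the first bin is only partly filled because the list starts at 1.2502. The purple lines lie between 1.37 and 2.07, and the quartiles of all boundaries of the compared arms were 1.42 and 1.99.

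The other genes of the pathway were taken as a list of 30 genes by role. An anchor lay in or within 20 kb of 6 of the 30 (20%), and a boundary lay within 1 kb of a gene end at 13 of the 30 (43.3%), against 13.8% and 18.2% of all protein-coding genes. Of the 15 pathway genes of at least 10 kb, 3 (20%) had such an anchor, against 21.1% of all protein-coding genes of that length. The share for boundaries was not computed by gene length. No test of these shares was made. By role, an anchor was near 3 of 10 other ligands and receptors, 2 of 4 nuclear factors, 1 of 5 feedback and planar polarity genes and none of 2 secretion, 3 extracellular and 6 cytoplasmic genes.

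Among the other ligands and receptors, wntD, a Wnt family member that acts in the dorsoventral axis and immunity, lay inside a loop of value 7.43 with its anchors 15.6 and 19.3 kb away. An anchor lay 772 bp from arr (arrow), the LRP co-receptor of Frizzled, in a loop of value 4.59 that spanned 2 boundaries to mars. The Derailed-family receptor gene Drl-2 was 12.8 to 15.6 kb from the anchors of 3 loops whose far anchors lay at or near the Polycomb-group genes Psc and Su(z)2. The highest of these had a value of 19.6. As at fz2, a boundary stood between Drl-2 and each of these anchors. It was a strong one, of 3.65.

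In the nucleus, an anchor lay 102 bp from pygo, a coactivator of Armadillo, in a loop of value 4.40 to CycG and RpL6, and one lay 11.4 kb from lgs, the adaptor between Armadillo and pygo, in a loop of value 7.77. An anchor inside pk (prickle), a planar polarity gene, was joined to Adk3 over 52.8 kb with a value of 4.65. Of the 6 genes, Drl-2 and lgs kept an anchor when only loops of at least the median value were counted.

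Boundaries at gene ends were strongest at fz4, a Frizzled-family receptor gene (2.62, at 80 bp), and at Axn, the scaffold of the destruction complex (2.48, at 42 bp). Next came arr (2.38, at 29 bp). At sgg, the kinase of the destruction complex, an end lay inside a boundary bin of 1.96, and pan, the gene of Pangolin, was 126 bp from one of 1.92. Another Frizzled-family gene, fz3, had no anchor within 20 kb and no boundary within 1 kb of an end, its nearest being 4345 bp away. Among fz, fz2, fz3 and fz4, a boundary thus lay within 1 kb of an end at fz2 and fz4, and an anchor within 20 kb at fz2.

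**Figure D5:**
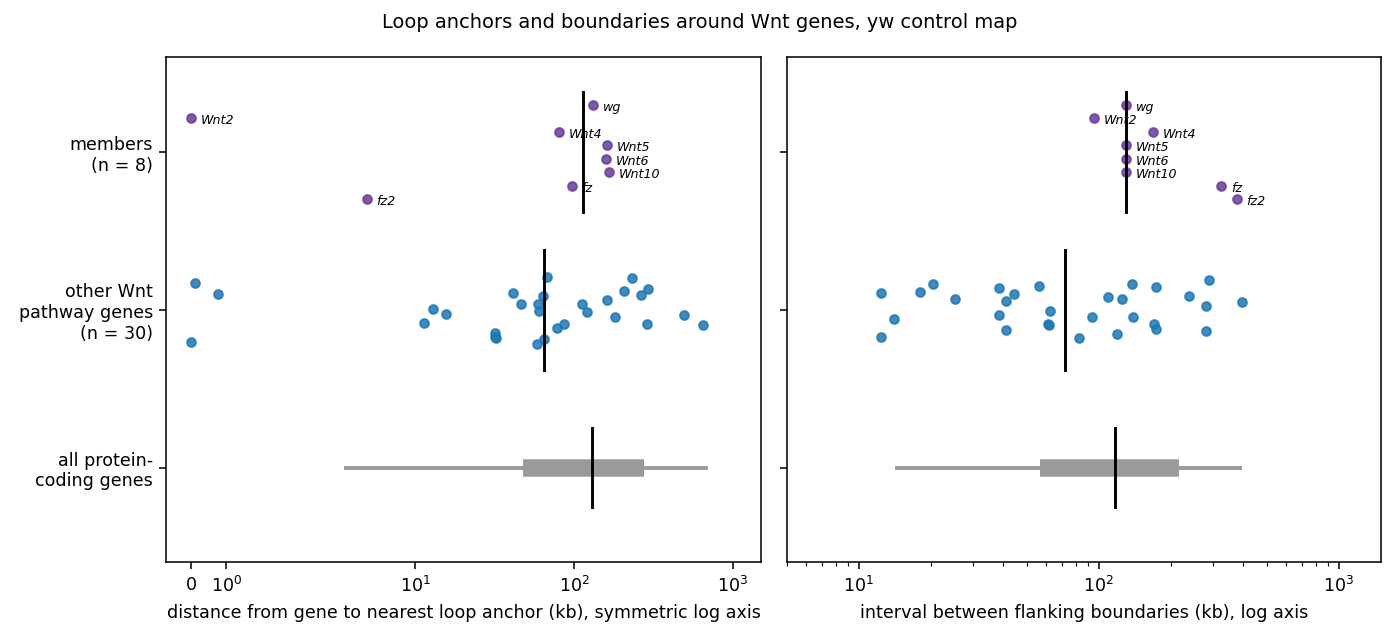
Distance from the gene to the nearest loop anchor in kb (left, symmetric log axis) and interval between the flanking boundaries in kb (right, log axis). Points are the 8 Wnt and Frizzled genes (top) and 30 other pathway genes (middle) with their medians as black lines, and the grey bars give the quartiles, thin lines the 5th to 95th percentile and the black line the median of all protein-coding genes (bottom). Wnt2 at 0 kb and fz2 at 4.98 kb stand apart from the other 6 genes, which lie from 80.2 to 166.9 kb from an anchor.

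The distance to the nearest anchor had a median of 114.2 kb over the 8 genes, 64.1 kb over the 30 other pathway genes and 129.5 kb over all protein-coding genes, whose quartiles were 47.5 and 276.3 kb. Few pathway genes lay close to the 8 genes, and none shared a domain with one of them. The gene por (porcupine), whose product attaches the lipid to Wnt proteins, lay 121.5 kb from Wnt5 with 1 boundary between them, the one of strength 2.07. The feedback gene nkd (naked cuticle) lay 95.5 kb from fz2 with 3 boundaries between them. The glypican gene dlp lay 264.0 kb from fz with 2 boundaries between them.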

How the data were processed

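Embryos of the yw line (2 samples) were processed by Micro-C and reads were aligned to dm6, with BWA 0.7.17 named in the submitters' processing notes. Neither the later steps nor any pooling of the 2 samples is given in the sources used here. Boundary strength and loop value are scores that the authors deposited on a scale not stated. The column names of the loop table are those of the SIP caller per the file headers, and the fraction it gives as a probability of enrichment was deposited by the authors and not used for any result.

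Of 2034 boundary entries, 14 exact repeats were removed, and 90 boundaries on Y were left out. Boundary bins are given as in the file, and 1 was added to loop starts, which count from 0. The gene table was RefSeq, Release 6, the assembly of dm6, without strand. All 8 genes and all 30 other pathway genes matched by symbol. Distances are between nearest edges. A boundary is inside a gene when the centre of its bin is. Genes share a domain when no bin centre lies from the left end of the first to the right end of the second. Shares of all protein-coding genes, or of neighbouring ones, are given as background, and the distance classes of the latter were set after the values of the 8 genes were seen. No test was made, because no feature has a value per sample and the genes and lists were chosen with earlier results of these data known. Sequence comparisons of the proteins and promoters were planned and not made, as no sequence was used here. Scripts ran in Python 3.11.15 with pandas 2.3.3 and were checked on simulated intervals.

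The genes named are the 8 genes, genes at anchors and flanking boundaries, genes in their domains (all where up to 10, otherwise the nearest and a count), and pathway genes with an anchor within 20 kb or, up to 5 by strength, a boundary within 1 kb. Not all that the rule allows are printed, and a withheld item is left out. Genes at the nearest anchors beyond 20 kb, the genes mRpL21, rept and pip, genes at the far anchors of loops of the 30 pathway genes, and fz3, por, nkd and dlp were named after their values were seen. Alternatives changed the distance, the loops, the boundaries and the background genes.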

Additional observations from a re-analysis of the deposited data

How the results depend on the processing

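The same 2 genes, Wnt2 and fz2, and the same count of 2 loops were found with a limit of 10 kb (8.32% of all protein-coding genes) and of 50 kb (25.9%). When only loops of median value or above counted, 0 of the 8 genes and 0 loops were left. With a gene end required within 1 kb of an anchor, 1 gene was left, Wnt2. Of the 30 other pathway genes, 6 had an anchor within 20 kb, 3 within 10 kb, 11 within 50 kb and 2 when only loops of median value or above counted. The background share was 21.1% with genes of at least 10 kb. With boundaries of at least the median strength, 0 of the 8 genes had a boundary within 20 kb (4 with all boundaries; 32.5% of all protein-coding genes with the stronger ones), 0 had one inside (1 with all; 2.68% of all genes) and the median interval was 276 kb in place of 129.8 kb. The 276 kb is the interval that wg, Wnt4, Wnt6 and Wnt10 share, and no median over all genes was computed with the stronger boundaries. The pairs sharing a domain were 3 with all boundaries. They were 6 with boundaries of at least the median strength, and also 6 with those of strength 2 or more. The share of other genes that lie together at these strengths was not computed, so these 6 pairs have no background. Changes in the distance limit, the loops or the boundaries follow from counting fewer or more features, and the background share from the genes it covers. No paired analysis was possible because the lists hold no column per sample, and for the same reason no replicate could be left out. The depth of the map, which limits how many weak loops and boundaries are listed, is unknown.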

Other observations

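Among the 30 other pathway genes, 3 of the 73 pairs on the same arm (4.11%) had no boundary from the left end of the first to the right end of the second. Over all pairs of protein-coding genes on the same arm, most of which lie far apart, this share was 0.612%. The Derailed-family receptor genes drl and dnt shared an interval of 173.2 kb on 2L although 130.047 kb and 3 genes lay between them. The Wnt co-receptor genes otk and otk2, 3.30 kb apart, shared an interval of 38.4 kb on 2R. The planar polarity genes stan, a cadherin gene also known as flamingo, and dgo shared an interval of 280.8 kb on 2R, with 94.9 kb and 13 genes between them. In drl and dnt, the ends within 1 kb of a boundary had boundary strengths of 1.79 (drl) and 1.2513 (dnt). These pairs were looked for after the values of the list were seen, and no test was made.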
